A study of Mus musculus with 49 samples.

Results

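The 6 genes described here, Grm2, Grm3, Grm4, Grm5, Grm7 and Grm8, encode metabotropic glutamate receptors. They were taken by name from the 52636 genes of the count table, with earlier results of these data known. The libraries were made from the nucleus accumbens (NAc) of C57BL/6J mice in which either D1- or D2-type medium spiny neurons (MSNs) carried a label, with 1 mouse per sample, and RNA was taken in 3 ways. Whole cell-FACS sorted cells from papain-dissociated fresh tissue of male mice heterozygous for a cytoplasmic fluorophore driven by the Drd1 or Drd2 promoter (8 D1 and 6 D2 libraries). Nuclear-FACS sorted GFP-labelled nuclei from frozen tissue of heterozygous male mice in which Drd1-cre or Drd2-cre switched on a Thy1-loxPSTOPloxP-EGFP-F transgene (6 D1 and 5 D2). RiboTag pulled down HA-tagged ribosomes from fresh tissue of mice carrying Drd1-cre or Drd2-cre and the Rpl22-loxPexon4loxP-exon4-HA allele, in males (6 D1 and 6 D2) and in females (5 D1 and 5 D2). The labels name no treatment, so each group is a cell type seen by 1 method, and the reporter and its driver differ between methods. The age of the mice is not given in the sources used here.

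Metabotropic glutamate receptors are G protein-coupled receptors that bind glutamate as dimers. Group I receptors, here mGluR5 from Grm5, couple to Gq and phospholipase C, sit mainly at the edge of the postsynaptic site and are held there by Homer and Shank scaffolds. Group II receptors (Grm2 and Grm3) and group III receptors (Grm4, Grm7 and Grm8) couple to Gi/o proteins, lower cyclic AMP and in many neurons act at the presynaptic terminal to reduce transmitter release. In the striatum, mGluR5 is a well known postsynaptic receptor of MSNs, mGluR3 is found in neurons and astrocytes, mGluR4 acts at striatal terminals, mGluR7 lies in the active zone, and mGluR2 is best known from cortical inputs.

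Except for Grm2, these are long genes made almost wholly of introns. In GRCm38, Grm5 lies on the plus strand at chr7:87584168-88134907 (550.7 kb) and Grm7 on the plus strand at chr6:110645581-111567230 (921.6 kb). Grm8 lies on the minus strand at chr6:27275119-28135178 (860.1 kb), Grm3 on the minus strand at chr5:9485541-9725170 (239.6 kb) and Grm4 on the minus strand at chr17:27422387-27521403 (99.0 kb). Grm2, on the minus strand at chr9:106643095-106656082, spans 13.0 kb. Exons make up 37.7% of the Grm2 span but 6.04% of Grm4, 1.86% of Grm5, 1.27% of Grm3, 1.15% of Grm8 and 0.639% of Grm7. The authors counted fragments over the whole gene body without regard to strand and counted a fragment once for each gene it overlapped. Intronic fragments therefore enter all values below, and reads of 5 members cannot be told apart from those of genes inside them (Gm28111 in Grm2, Gm42455 in Grm3, 6 short genes in Grm5, Gm20386 and Gm20387 in Grm7, and Gm26310, Gm42801 and Mir592 in Grm8). Grm4 overlaps no other annotated gene.

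The promoters that could be read are shown here because the members differed in their direction between cell types in nuclei, as described below. The sequences are from RefSeq on GRCm38.p6 and run from 250 bases before a transcript start to 50 bases after it, on the gene's own strand. Capitals mark GGGCGG, the core of the GC box bound by Sp1-type factors, searched on both strands. Grm2 is chr9:106656060-106656359, Grm3 is chr5:9725303-9725602, Grm7 is chr6:110645348-110645647 and Grm8 is chr6:28135097-28135396.
Grm2: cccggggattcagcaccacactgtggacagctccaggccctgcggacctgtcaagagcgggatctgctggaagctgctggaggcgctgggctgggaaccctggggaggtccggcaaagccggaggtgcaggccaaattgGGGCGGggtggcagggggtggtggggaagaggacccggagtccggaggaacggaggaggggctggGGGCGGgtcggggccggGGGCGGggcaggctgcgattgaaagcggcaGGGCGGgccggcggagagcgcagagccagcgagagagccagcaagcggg
Grm3: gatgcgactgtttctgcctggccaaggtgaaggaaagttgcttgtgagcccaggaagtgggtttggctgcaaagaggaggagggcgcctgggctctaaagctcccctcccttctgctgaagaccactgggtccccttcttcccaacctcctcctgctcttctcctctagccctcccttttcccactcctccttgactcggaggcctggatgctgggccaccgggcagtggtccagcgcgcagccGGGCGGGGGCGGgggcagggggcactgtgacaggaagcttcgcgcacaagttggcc
Grm7: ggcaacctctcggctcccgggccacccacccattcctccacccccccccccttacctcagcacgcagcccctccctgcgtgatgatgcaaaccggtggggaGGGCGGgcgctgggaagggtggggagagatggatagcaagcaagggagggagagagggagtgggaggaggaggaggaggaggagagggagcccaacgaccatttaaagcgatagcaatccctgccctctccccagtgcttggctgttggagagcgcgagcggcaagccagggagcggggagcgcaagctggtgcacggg
Grm8: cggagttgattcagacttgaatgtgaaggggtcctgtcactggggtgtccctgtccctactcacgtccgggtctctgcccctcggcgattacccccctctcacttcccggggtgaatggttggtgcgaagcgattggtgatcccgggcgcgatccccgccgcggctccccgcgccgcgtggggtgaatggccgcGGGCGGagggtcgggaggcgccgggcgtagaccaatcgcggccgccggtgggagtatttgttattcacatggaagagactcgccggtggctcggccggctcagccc
The window held 4 GC boxes in Grm2, 2 in Grm3 and 1 each in Grm7 and Grm8, and 35.7% of 32851 RefSeq promoters of the same length held at least 1. All 4 windows were rich in CG dinucleotides, with 22 in Grm2, 11 in Grm3, 15 in Grm7 and 33 in Grm8 against a median of 7 over all promoters. GC content was 72.0% in Grm2, 63.7% in Grm3, 66.7% in Grm7 and 67.0% in Grm8, and the median promoter had 52.7%. None held TATAAA, which 13.6% of promoters held. Grm7 has 1 further RefSeq start, whose window overlaps the one shown and holds 10 CG dinucleotides. Grm8 has 2 further starts, at windows with 10 and 2 CG dinucleotides and no GC box.

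Depth and purity differed among the groups. Totals were 10.5 to 28.0 M (mega) counts in whole cell libraries, 24.1 to 45.6 M in RiboTag libraries, 3.84 to 68.8 M in nuclear D1 libraries (4 of 6 under 10 M) and 3.7 to 47.1 M in nuclear D2 libraries (1 of 5 under 10 M). The 10 highest genes of a library took 84.9 to 88.3% of RiboTag counts, 20.3 to 66.9% of nuclear D1 counts, 5.23 to 13.9% of nuclear D2 counts, and over 15% in whole cell D2 libraries 2, 5 and 6. Drd1 was higher in every D1 than every D2 library of its method, and Drd2 was higher in every D2 than every D1 library, but the separation was narrower in nuclei (Drd1 10.6 to 27.9 against 3.33 to 8.0 CPM) than in whole cells (80.4 to 397 against 0.293 to 13.7 CPM). The summed level of the 4 D1 markers Drd1, Pdyn, Tac1 and Isl1 overlapped between nuclear groups (32.1 to 52.2 CPM in D1 and 25.9 to 39.6 CPM in D2), and so did that of the 4 D2 markers Drd2, Adora2a, Penk and Gpr6 (202 to 575 CPM in D1 and 299 to 602 CPM in D2). Several marker lists of other cells were higher in every nuclear D2 than every nuclear D1 library. The 3 endothelial markers summed to 135 to 228 CPM against 6.05 to 110 CPM in nuclear D1, the 5 interneuron markers to 164 to 258 against 39.5 to 117 CPM, the 4 cortical glutamatergic markers to 159 to 196 against 37.0 to 125 CPM the 5 microglial markers to 173 to 219 against 42.7 to 170 CPM and the 2 markers of oligodendrocyte precursors to 58.6 to 76.8 against 11.8 to 52.6 CPM. The 6 astrocyte markers, of interest beside Grm3, overlapped at 465 to 710 CPM in nuclear D2 and 474 to 1060 CPM in nuclear D1, and the 5 oligodendrocyte markers overlapped too. None of these markers was at 0 throughout a group. Reads spread evenly over the genome were estimated from 1431 olfactory and vomeronasal receptor genes, which NAc neurons are not known to use. By this estimate they made up 32.4 to 52.2% of counts in nuclear D2, 0.578 to 22.2% in nuclear D1, 13.5 to 52.4% in whole cell D1, 8.33 to 36.7% in whole cell D2 and at most 0.0631% in RiboTag libraries. The part of these differences in the results below was not tested, except where values with the background subtracted are given. As these are bulk samples, fewer cells of a type and less RNA per cell cannot be told apart.

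The first question was how much of each receptor's RNA each method recovered. Levels are given as CPM (counts scaled to a common normalised library total) over the 37 male libraries put on 1 scale by TMM. Grm5 and Grm7 were the most counted members and Grm2 the least. Grm5 was at 402 ± 211 CPM in whole cell D1 (SD, n = 8) and 535 ± 215 CPM in whole cell D2 (n = 6). Nuclear libraries had 704 ± 269 CPM of it in D1 (n = 6) and 214 ± 67.4 CPM in D2 (n = 5), and RiboTag libraries 341 ± 31.9 CPM in D1 (n = 6) and 384 ± 38.8 CPM in D2 (n = 6). The spread of Grm5 was thus narrow in RiboTag and wide in both sorted preparations.

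Grm7, the active zone receptor, was at 401 ± 178 CPM in D1 and 590 ± 310 CPM in D2 with whole cells, 735 ± 259 and 295 ± 70.0 CPM with nuclei, and 114 ± 26.6 and 130 ± 18.4 CPM with RiboTag. Grm3 was at 101 ± 44.9, 165 ± 63.8, 280 ± 68.9, 99.6 ± 27.7, 88.0 ± 8.31 and 95.2 ± 11.0 CPM in the same order of groups. Grm4 was at 26.4 ± 3.43, 39.1 ± 13.6, 61.3 ± 15.5, 38.3 ± 7.98, 40.4 ± 5.16 and 47.4 ± 5.49 CPM. For all of Grm3, Grm4, Grm5 and Grm7, nuclear D1 libraries had the highest mean of the 6 groups.

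In CPM, which takes no account of gene length, Grm8 was low only in RiboTag, and Grm2 was low in every group. Per kilobase of span, Grm8 had the lowest mean of the 6 members in every group. Estimated background, described below, took a median of 65.2% of Grm8 counts in whole cell D1, 78.8% in whole cell D2 and 60.1% in nuclear D2. Grm8 was at 110 ± 20.8 CPM in whole cell D1, 76.1 ± 29.3 in whole cell D2, 101 ± 23.9 in nuclear D1 and 148 ± 8.23 in nuclear D2, but at 10.0 ± 3.23 in RiboTag D1 and 7.98 ± 1.57 in RiboTag D2. Grm2 was between 1.43 ± 1.47 (whole cell D2) and 2.88 ± 0.369 CPM (nuclear D2) in every group. Grm2 rested on 0 to 190 counts in a whole cell library, 4 to 404 in a nuclear library and 4 to 24 in a RiboTag library, and the count of 0 in whole cell D2 library 1 allows up to 3 counts, which is 0.277 CPM of that library's total before the normalisation used above.

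**Figure D1:**
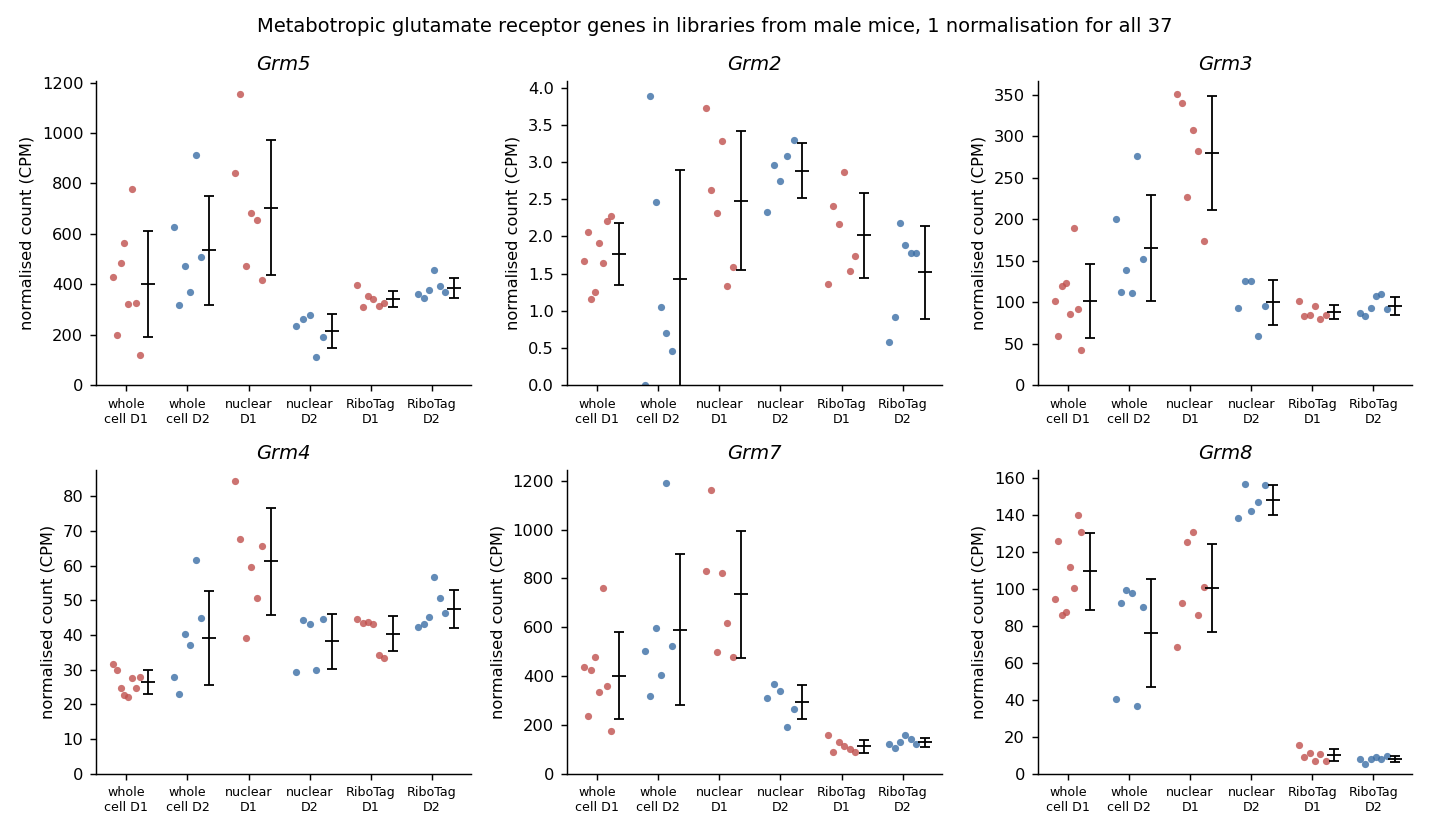
CPM of the 6 members in the 37 male libraries under 1 normalisation, by method and cell type. Points are libraries (red D1, blue D2), and black bars give the mean ± SD of a group, the whole cell D2 bar of Grm2 being cut at 0. Grm3, Grm5 and Grm7 are highest in nuclear D1 and fall in nuclear D2, and Grm8 is lowest in both RiboTag groups.

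Per kilobase of gene span, within each method's own normalisation, Grm5 had the highest mean in every group but nuclear D2 and Grm8 the lowest in all. In whole cell D2, Grm8 was below Grm2 in only 3 of 6 libraries. Grm5 led in whole cell D1 (1.70 ± 0.785 FPKM over the span, SD, n = 8, above the next gene Grm7 in 8 of 8 libraries) and in whole cell D2 (2.37 ± 0.912, above Grm3 in 6 of 6). In nuclear D1 the lead of Grm5 (2.26 ± 0.939) over Grm3 (2.06 ± 0.588) held in only 4 of 6 libraries, so these neighbours did not differ beyond their spread. In nuclear D2 the order was Grm3 (0.699 ± 0.194, above Grm5 in 4 of 5 libraries), Grm5 (0.656 ± 0.206), Grm4 (0.650 ± 0.132) and Grm7 (0.539 ± 0.128), with overlapping mean ± SD ranges.

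In RiboTag libraries the order over the span began with Grm5, Grm4 and Grm3 and ended with Grm8, while Grm2 and Grm7 changed places between groups. In RiboTag male D1, Grm5 was at 0.134 ± 0.0102 FPKM over the span and above Grm4 (0.0886 ± 0.00952) in 6 of 6 libraries, and Grm4 was above Grm3 (0.0798 ± 0.00644) in 5 of 6. Grm2 (0.0336 ± 0.00913) and Grm7 (0.0266 ± 0.00557) overlapped, and Grm8 was at 0.00252 ± 0.000779, below Grm7 in every library. The female D1 libraries had the same leading genes, with Grm5 at 0.158 ± 0.0132, Grm4 at 0.105 ± 0.0128 and Grm3 at 0.0894 ± 0.0127. Dividing by summed exon length instead put Grm7 first in whole cell and nuclear libraries of both cell types (160 ± 61.3 FPKM over exons in whole cell D1). It left Grm5 first in RiboTag (7.23 ± 0.547 in male D1) and placed Grm2 last in every group. The RiboTag order over exons was Grm5, Grm3, Grm7, Grm4, Grm8 and Grm2 in every RiboTag group, so the places of Grm4 and Grm7 depended on the length used.

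The central comparison was D2 against D1 within each method, tested by edgeR's quasi-likelihood test with Benjamini-Hochberg adjustment over all genes. A gene was called at an adjusted p of at most 0.05 with a log2 change beyond 0.38, and a positive value is higher in D2. In nuclei, 5 of the 6 members were called: Grm3, Grm4, Grm5 and Grm7 were lower in D2 and Grm8 was higher. The background was high, since 26.2% of the 30791 genes tested were called, 20.6% of them lower and 5.6% higher in D2. Calls lower in D2 were also frequent among 2802 protein-coding genes of at least 90 kb, a length chosen to hold the 5 long members, of which 34.6% were called lower and 12.8% higher.

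Grm5, the Gq-coupled group I receptor, had the largest change in nuclei. It was at 688, 1180 and 2070 CPM (lowest, median and highest of 6 libraries) in D1 and at 395, 444, 466, 186 and 315 CPM in the 5 D2 libraries. All D2 libraries lay below all D1 libraries. The log2 change was -1.78 ± 0.331 (SE), 3.44-fold lower in D2, with a 95% interval of -2.496 to -1.069 and an adjusted p of 0.00565.

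Among the group II receptors, Grm3 was lower and Grm2 was not called. Grm3 was at 285, 517 and 655 CPM (lowest, median and highest) in nuclear D1 and at 158, 212, 210, 99.4 and 158 CPM in nuclear D2. Again no library overlapped, and the log2 change was -1.56 ± 0.262 (2.94-fold lower, adjusted p = 0.00565). Grm2 was at 2.52, 4.26 and 6.95 CPM in D1 and at 3.95, 4.99, 4.62, 5.22 and 5.48 CPM in D2, so the D2 libraries lay within the range of D1. Its log2 difference of 0.13 ± 0.324 had an interval of -0.57 to 0.83 (adjusted p = 0.751), which leaves room for changes past the threshold in either direction.

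The group III receptors did not move one way. Grm7 was at 783, 1250 and 2080 CPM in nuclear D1 and at 528, 623, 572, 323 and 439 CPM in nuclear D2, without overlap, a log2 change of -1.38 ± 0.288 (2.60-fold lower, adjusted p = 0.00629). Grm4 was at 64.5, 103 and 158 CPM in D1 and at 49.6, 74.7, 72.7, 50.5 and 74.2 CPM in D2. The Grm4 groups overlapped through 1 D1 library, and its log2 change was -0.74 ± 0.224 (1.67-fold lower, adjusted p = 0.029). Grm8 was at 127, 165 and 213 CPM in D1 and at 235, 264, 239, 249 and 259 CPM in D2, with every D2 library above every D1 library. Its log2 change was 0.52 ± 0.159 (1.44-fold higher, adjusted p = 0.0296). Over all genes tested, the groups did not overlap for 29.9%, so the 4 members without overlap stand against a high background.

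The scale of the nuclear comparison was itself uneven. The median log2 change of all genes tested was 0.26, so that relative to it Grm5 was at -2.04, Grm3 at -1.81, Grm7 at -1.63, Grm4 at -0.997, Grm2 at -0.13 and Grm8 at 0.27. Of the genes called, 21.3% were higher in D2 under TMM but 48.6% under DESeq2's size factors and 58.4% under DESeq2. Relative to the median of its own setting, Grm8 fell to -0.24 when all genes with a count were kept, and its direction against other genes therefore depended on the filter.

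The calls of Grm3, Grm5 and Grm7 held in each of 11 fits that left out 1 library, whereas Grm4 was called in 5 and Grm8 in 3 of them. Grm4 lost its call without nuclear D1 library 1, 2, 4 or 6 or nuclear D2 library 1 or 5 (log2 change -0.69 to -0.56, adjusted p = 0.0513 to 0.0831). Grm8 kept its call only without nuclear D1 library 3, 4 or 6 and was at 0.47 to 0.55 (adjusted p = 0.0545 to 0.0654) without any other. With the estimated background subtracted, Grm3 (-1.14), Grm5 (-1.38) and Grm7 (-1.07) were still called lower, while Grm4 (-0.32, adjusted p = 0.217) and Grm8 (0.46, adjusted p = 0.0876) were not. The study's filter asks for an FPKM of at least 1 in 1 library. The paper's text does not name the length behind it, and the gene span was used here. Over exons instead, Grm8 had means of 17.5 FPKM in nuclear D1 and 25.2 in nuclear D2. With the filter over the span, Grm2 and Grm8 dropped out, the scale moved by 1.13 on the log2 scale and no member was called. There Grm5 was at -0.65 (adjusted p = 0.0522), Grm3 at -0.45 (adjusted p = 0.0748), Grm7 at -0.25 (adjusted p = 0.392) and Grm4 reversed to 0.37 (adjusted p = 0.0803). Leaving out the 5 nuclear libraries under 10 M counts kept 2 D1 and 4 D2 libraries, with Grm3 at -1.55, Grm5 at -1.61, Grm7 at -1.17 and Grm8 at 0.58, and neither a member nor any other gene was then called.

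**Figure D2:**
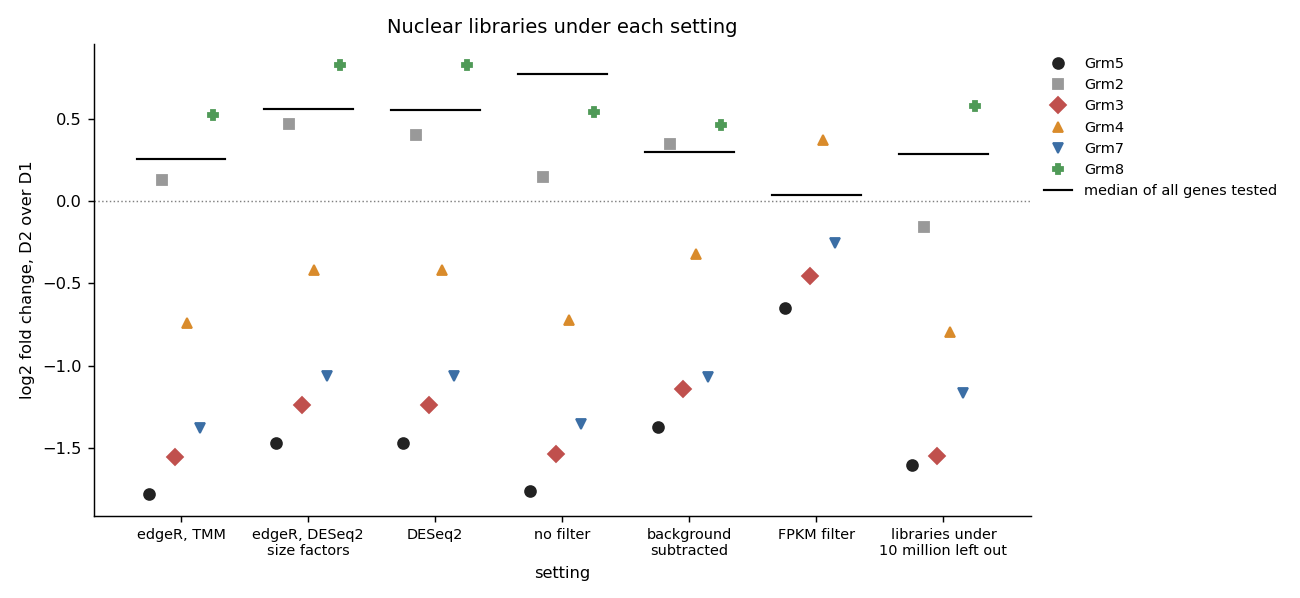
Log2 change of the members between nuclear D2 and D1 under each setting, with the median of all genes tested as a black line. Grm5, Grm3 and Grm7 lie below the median under all of them, the distance being smallest under the FPKM filter, where Grm2 and Grm8 are absent and no member is called.

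The estimated background took a larger part of the members' counts in nuclear D2 than in nuclear D1. Its median share was 28.4% of Grm5 counts in D2 against 2.72% in D1, 24.6 against 2.66% for Grm3, 34.0 against 4.05% for Grm7 and 22.8 against 5.80% for Grm4. For Grm8 it was 60.1% against 24.8%, and for Grm2 47.0% against 18.0%. The higher count of Grm8 in nuclear D2 thus went with a background that held most of its counts there. In whole cells the share was highest for Grm8 (65.2% in D1 and 78.8% in D2) and Grm2 (65.0 and 69.6%), and lowest for Grm5 (12.6 and 9.56%). In male RiboTag libraries the median share was 10.6% of Grm8 counts in D1 and 14.7% in D2, and for each other member it was at most 1.05%.

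**Figure D3:**
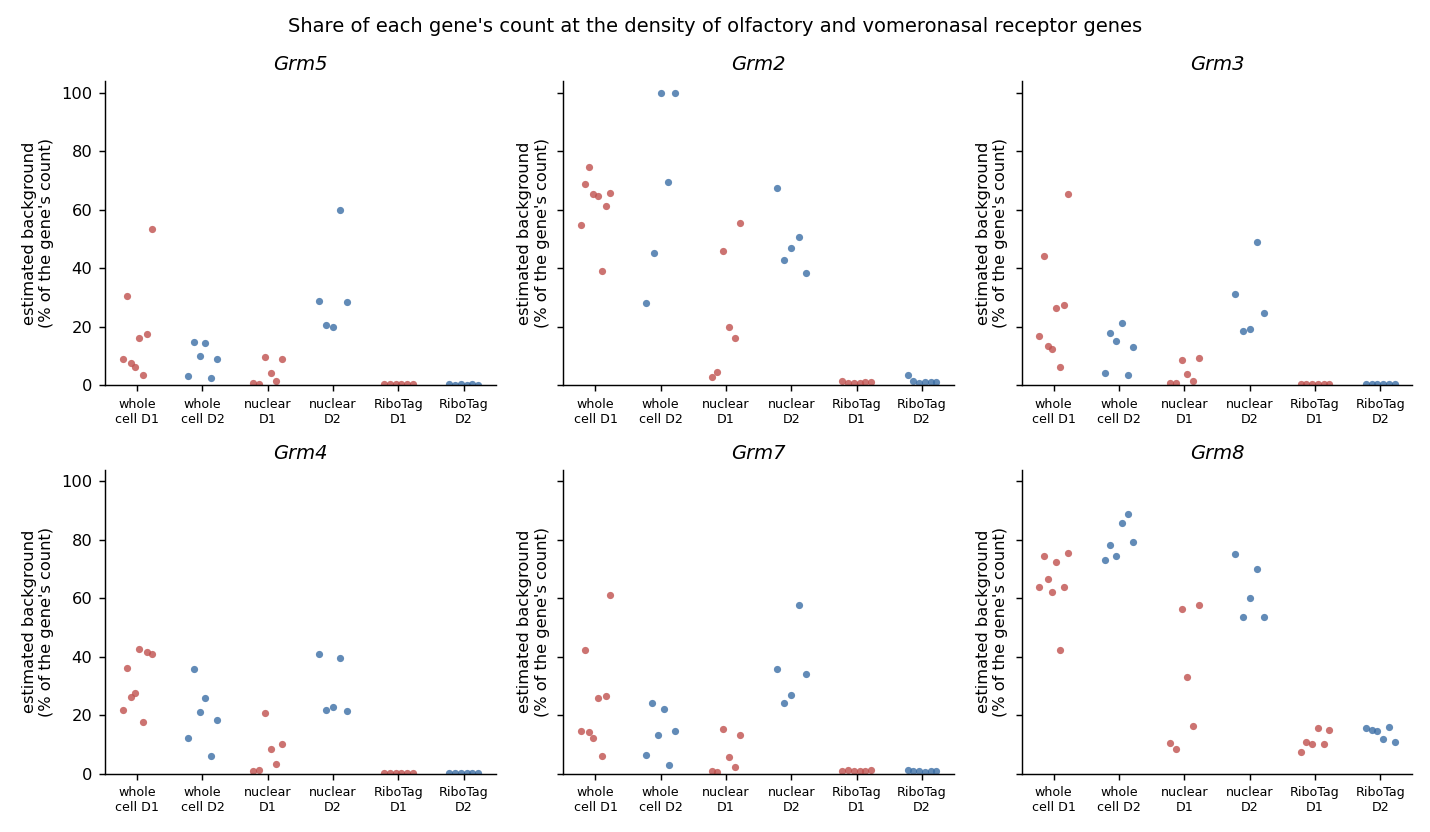
Estimated background as a percent of each member's counts, by group, with points for libraries. Values above 100% are drawn at 100% (Grm2 in whole cell D2, where the library with 0 counts is left out). Grm8 and Grm2 have the largest shares, and all members have larger shares in nuclear D2 than in nuclear D1.

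In whole cells no member was called, against 0.105% of 33421 genes (35 genes, with 1990 at an unadjusted p under 0.05 and 256 called by DESeq2). The estimates had the opposite sign to the nuclear ones for all 6 members, but for Grm2 both intervals reached into either direction. Relative to the median of all genes, Grm2 was lower in D2 in both methods (-0.129 in nuclei and -0.226 in whole cells). Among the whole cell intervals, only those of Grm3 and Grm4 lay on 1 side of no change, and nuclear Grm4 turned to 0.37 under the FPKM filter. Grm5 was at 316, 932 and 1720 CPM (lowest, median and highest of 8 libraries) in D1 and at 799, 1200 and 2190 CPM (of 6) in D2, overlapping, with a log2 difference of 0.48 ± 0.319 (adjusted p = 0.99). Grm3 was at 112, 239 and 417 CPM in D1 and at 272, 357 and 664 CPM in D2. Of its 8 D1 libraries, 7 lay below all D2 libraries, and the log2 difference of 0.76 ± 0.266 had an interval of 0.20 to 1.31 but an adjusted p of 0.508. Grm2 was at 2.48, 4.37 and 6.06 CPM in D1 and at 0, 2.14 and 9.81 CPM in D2, a log2 difference of -0.28 ± 0.644 (adjusted p = 1).

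Among group III receptors in whole cells, Grm4 was at 49.6, 62.1 and 78.5 CPM in D1 and at 58.2, 96.1 and 148 CPM in D2, with 4 of 6 D2 libraries above every D1 library. Its log2 difference was 0.58 ± 0.207 (adjusted p = 0.518). Grm7 was at 462, 919 and 1680 CPM in D1 and at 805, 1240 and 2860 CPM in D2, where library 5 alone was above all D1 libraries (0.61 ± 0.302, adjusted p = 0.857). Grm8 was at 185, 253 and 360 CPM in D1 and at 87.7, 225 and 249 CPM in D2 (-0.51 ± 0.264, adjusted p = 0.883). The groups overlapped for every member, as for all but 0.601% of genes tested. Without the 3 D2 libraries in which 10 genes took over 15% of counts, the differences were 0.51 for Grm3, 0.37 for Grm4, 0.24 for Grm5, 0.28 for Grm7, -0.50 for Grm8 and -0.59 for Grm2.

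In RiboTag male libraries the estimated differences of the members tested lay within the 0.38 threshold. They were measured most narrowly for Grm3, Grm4 and Grm5, and the Grm8 interval reached past the threshold. No member was called, against 4.51% of 10677 genes. Grm5 was at 69.7, 72.8 and 84.7 CPM in D1 and at 78.7, 80.6 and 92.4 CPM in D2, and 5 of 6 D1 libraries lay below every D2 library. Its log2 difference was 0.16 ± 0.053, with an interval of 0.05 to 0.27 and an adjusted p of 0.0635. Grm4 was at 7.59, 9.09 and 9.76 CPM in D1 and at 9.4, 10.0 and 11.5 CPM in D2, a log2 difference of 0.22 ± 0.073 (interval 0.06 to 0.37, adjusted p = 0.0739). For Grm4 and Grm5 the upper ends of the intervals lay below the 0.38 threshold.

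Grm3, Grm7 and Grm8 were not called either. Grm3 was at 17.6, 19.0 and 21.6 CPM in RiboTag male D1 and at 19.2, 19.6 and 23.3 CPM in D2 (0.10 ± 0.062, adjusted p = 0.399). Grm7 was at 20.2, 23.0 and 33.6 CPM in D1 and at 24.4, 27.1 and 32.1 CPM in D2 (0.18 ± 0.096, adjusted p = 0.313), with 4 of 6 D1 libraries below all D2 libraries. Grm8 was at 1.40, 2.17 and 3.30 CPM in D1 and at 1.19, 1.75 and 2.06 CPM in D2 (-0.33 ± 0.168, interval -0.68 to 0.02, adjusted p = 0.292). Grm2 did not pass the filter, with 0.29, 0.424 and 0.601 CPM in D1 and 0.13, 0.38 and 0.453 CPM in D2. In all cases the groups overlapped, against 4.22% of genes without overlap. With every gene that had a count kept in the test, adjusted p fell to 0.0399 for Grm4, 0.0255 for Grm5 and 0.0229 for Grm7, but the changes stayed under the 0.38 threshold.

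RiboTag female libraries gave no call among the members, against 2.55% of 10941 genes. Grm5 was at 78.9, 89.0, 81.8, 87.8 and 97.7 CPM in the 5 D1 libraries and at 92.8, 85.6, 85.0, 91.8 and 85.7 CPM in the 5 D2 libraries. The ranges were all but the same, and the log2 difference was 0.02 ± 0.058 (interval -0.11 to 0.14, adjusted p = 0.939). Grm3 was at 18.5, 20.2, 20.6, 21.3 and 26.5 CPM in D1 and at 26.2, 20.5, 21.8, 22.6 and 23.6 CPM in D2 (0.10 ± 0.086). Grm4 was at 10.2, 10.9, 8.32, 10.7 and 11.7 CPM in D1 and at 11.3, 10.1, 12.0, 11.1 and 11.1 CPM in D2 (0.10 ± 0.081). Neither gene separated the cell types.

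Grm7 varied most in female D1, at 27.7, 41.1, 23.8, 32.9 and 44.5 CPM, around the D2 values of 31.3, 27.1, 32.6, 28.1 and 36.4 CPM (-0.13 ± 0.133). Grm8 was at 2.82, 3.39, 1.59, 1.93 and 3.04 CPM in female D1 and at 1.31, 2.28, 2.15, 1.26 and 3.38 CPM in female D2 (-0.32 ± 0.244). Adjusted p ranged from 0.636 to 0.939 over the 5 members tested, and all overlapped between groups, against 4.41% of genes that did not. Grm2, at 0.284 to 0.552 CPM in D1 and 0.128 to 0.579 CPM in D2, was under the filter here too. Markers of other cells were higher in RiboTag D1 than D2 without overlap for 4 lists in each sex. Cortical glutamatergic markers summed to 19.5 to 45.2 CPM in male D1 against 1.39 to 11.1 CPM in D2, and to 15.3 to 37.3 against 2.14 to 7.94 CPM in females. Astrocyte markers summed to 41.0 to 59.4 against 24.9 to 34.0 CPM in males and 38.3 to 57.7 against 24.5 to 33.0 CPM in females, interneuron markers to 18.5 to 24.7 against 11.0 to 15.4 and 21.3 to 33.0 against 8.78 to 20.7 CPM, and endothelial markers to 0.557 to 1.60 against 0.234 to 0.476 and 0.772 to 3.11 against 0.329 to 0.687 CPM. Their part in the member values was not tested.

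**Figure D4:**
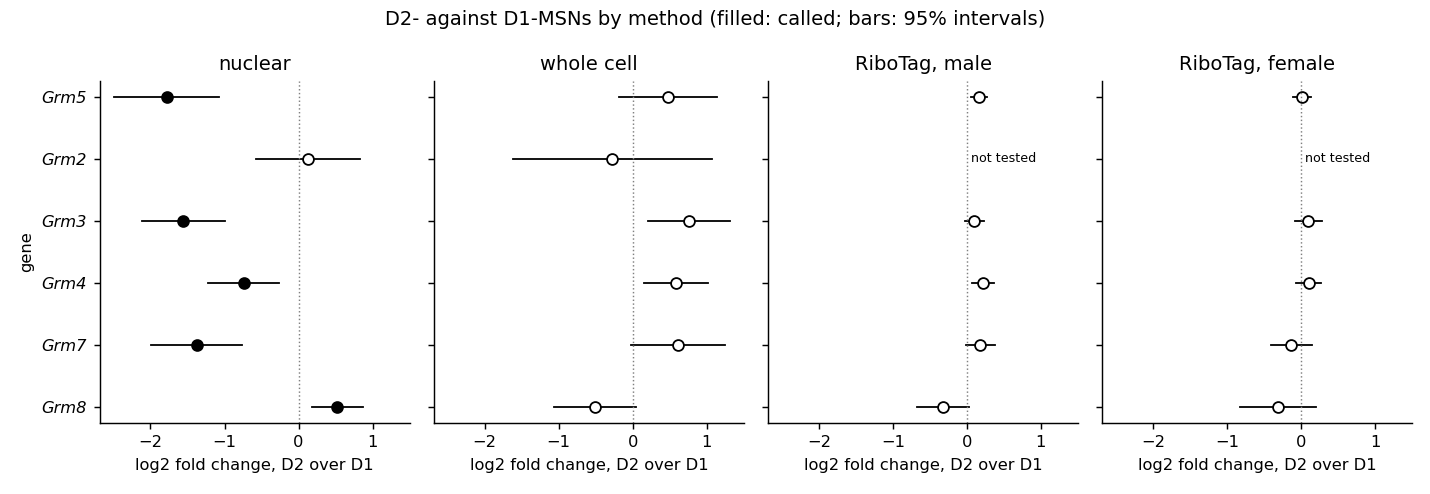
Log2 change of each member between D2 and D1 in the 4 comparisons, with 95% intervals. Filled points were called, and Grm2 was not tested in RiboTag. Only nuclear points are filled. For all 6 members the nuclear and whole cell estimates have opposite signs, but both Grm2 intervals reach into either direction.

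Whether the methods gave different D2-D1 differences was tested directly in 1 fit of the 37 male libraries. The nuclear difference was lower than the whole cell difference for Grm3 (-2.20 ± 0.355, adjusted p = 0.000115), Grm5 (-2.13 ± 0.428, adjusted p = 0.000739), Grm7 (-1.88 ± 0.400, adjusted p = 0.00116) and Grm4 (-1.25 ± 0.258, adjusted p = 0.000879). For Grm8 it was higher (1.08 ± 0.307, adjusted p = 0.0114). For Grm2 the difference was 0.48 ± 0.689 (adjusted p = 0.594), too wide to place. These 5 calls of 6 stand against 21.9% of 29901 genes, whose median was 0.33. The same 5 genes were called under DESeq2, its size factors, no filter, subtraction of background and without the repeat column of a whole cell library. The FPKM filter and the leaving out of libraries, which ended or reduced the nuclear calls, were not run for this contrast. How far it would hold under them was not tested.

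The D2-D1 difference was not called as different between RiboTag and whole cells for any member. Of all genes 0.12% were called (36 genes, with 1337 at an unadjusted p under 0.05 and 118 called by DESeq2). The estimates ran from -0.59 ± 0.342 for Grm3, with an interval of -1.28 to 0.10, to 0.20 ± 0.311 for Grm8, with an interval of -0.43 to 0.83. Between the sexes in RiboTag, no member tested was called in level. Of 11133 genes 0.0539% were called (6 genes, with 1059 at an unadjusted p under 0.05). The female level was 0.03 ± 0.055 above the male level on the log2 scale for Grm3, 0.05 ± 0.057 for Grm4, 0.03 ± 0.043 for Grm5, 0.18 ± 0.095 for Grm7 and 0.12 ± 0.158 for Grm8. Nor did the D2-D1 difference change with sex for any member, where edgeR and DESeq2 each called 0% of genes (753 at an unadjusted p under 0.05 in edgeR). That sex difference was -0.31 ± 0.184 for Grm7 and -0.15 ± 0.082 for Grm5.

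Levels were also compared between methods within a cell type, where method, tissue state, reporter line and the animals themselves cannot be told apart. In D1, nuclear libraries had more than whole cell libraries of Grm3 (log2 change 1.47 ± 0.233, adjusted p = 1.12e-05), Grm4 (1.22 ± 0.170, adjusted p = 1.32e-06), Grm7 (0.88 ± 0.262, adjusted p = 0.0161) and Grm5 (0.81 ± 0.280, adjusted p = 0.038). Grm8 was at -0.12 ± 0.204 and Grm2 at 0.52 ± 0.461, neither of them called. These 4 calls stand against 19.1% of genes and a median of -0.32. In D2 the picture turned: Grm5 (-1.32 ± 0.325, adjusted p = 0.00275), Grm7 (-1.0 ± 0.301, adjusted p = 0.0143) and Grm3 (-0.73 ± 0.265, adjusted p = 0.0459) were lower in nuclei and Grm8 was higher (0.96 ± 0.228, adjusted p = 0.00192), against 20.2% of genes and a median of 0.14. The D2 call of Grm3 was lost under DESeq2, its size factors and subtraction of background (-0.40, -0.40 and -0.47), and that of Grm8 was 2.20 with background subtracted.

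RiboTag libraries lay below whole cell libraries for most genes on this scale. The medians were -1.86 in D1 and -1.87 in D2, and 80.5% and 81.2% of genes were called. Grm8 was 10.9-fold lower in RiboTag D1 (log2 -3.45 ± 0.238, adjusted p = 7.66e-15) and 9.50-fold lower in RiboTag D2 (-3.25 ± 0.243, adjusted p = 9.21e-14). With the estimated background subtracted, the Grm8 values shrank to -2.67 ± 0.318 in D1 and -1.74 ± 0.322 in D2, still called. Grm7 was 3.53-fold lower in D1 (-1.82 ± 0.280) and 4.55-fold lower in D2 (-2.19 ± 0.295), close to the medians. Grm3 was called lower only in D2 (-0.79 ± 0.251, adjusted p = 0.0047, against -0.20 ± 0.235 in D1), and the difference between the cell types was not called. Grm4 was called higher in RiboTag D1 (0.62 ± 0.171, adjusted p = 0.00148) and was at 0.28 ± 0.183 in D2. Relative to the medians, Grm4 was at 2.48 in D1 and 2.15 in D2, Grm5 at 1.63 and 1.40, Grm3 at 1.66 and 1.08, Grm2 at 2.05 and 1.96, Grm7 at 0.04 and -0.31, and Grm8 at -1.59 and -1.38.

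A list of 17 genes that work with group I receptors and a list of 17 that work with group II and III receptors were set beside the members. In nuclei, 12 of the 17 group I partners were called lower in D2 and 0 higher, with a median log2 change of -1.09 against 0.26 over all genes. Of all genes tested 20.6% were called lower, and of the protein-coding genes of at least 90 kb 34.6% were. The 2 largest changes were in Ncdn, which encodes neurochondrin, a protein that binds mGluR5 (-3.68 ± 0.642, adjusted p = 0.00565), and Homer1, the scaffold that ties mGluR5 to the postsynaptic density (-1.70 ± 0.353, adjusted p = 0.00626). Of the group II and III partners, 12 of 17 were also called lower and 0 higher, with a median of -0.85. They were led by Rgs4 (-3.56 ± 0.674, adjusted p = 0.00565) and Rgs9 (-1.83 ± 0.390, adjusted p = 0.00672), which encode proteins that speed the shut-off of G protein signals. With background subtracted, 7 group I partners were called lower and 2 higher, and 8 group II and III partners lower and 0 higher. Under DESeq2's size factors 8 group I partners were called lower and 2 higher, and 8 group II and III partners lower and 1 higher. DESeq2 called 11 lower in each list, with 2 and 1 higher. Its list medians were -0.747 and -0.533 against 0.554 over all genes. Under the study's FPKM filter 1 of 12 group I partners was called lower and 1 higher. Of the group II and III partners 2 of 14 were called lower and 2 higher. The list medians there were -0.124 and -0.066 against 0.035 over all genes. Without the nuclear libraries under 10 M counts none of either list was called, nor was any other gene. The share of all genes called changed with the setting too, so these counts cannot be set against the 20.6% of the main fit. Numbers of all genes called under DESeq2 and the FPKM filter are given in the last section.

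In whole cells no partner of either list was called by edgeR, against 0.105% of all genes. The list medians were 0.20 and 0.07 against -0.05 over all genes. DESeq2 called 1 group II and III partner higher, and under the study's FPKM filter 1 of 13 in that list was called higher and 2 lower, with a median of -0.29 against -0.09. In RiboTag males 4.51% of all genes were called. Of the 16 group I partners tested 2 were called lower in D2, among them Shank1, a postsynaptic scaffold (-0.68 ± 0.080, adjusted p = 2.16e-06). Gnai1, an inhibitory G protein subunit, was the 1 of 17 group II and III partners called lower (-0.40 ± 0.048, adjusted p = 3.46e-06). In RiboTag females 2 of 17 group I and 1 of 17 group II and III partners were called, all lower in D2, against 2.55% of all genes. Shank1 was at -0.72 ± 0.100 and Gnai1 at -0.50 ± 0.063. The RiboTag list medians lay between -0.07 and 0.01, near those of all genes. Outside the 6, the family receptor Grm6, best known from the retina, was at 1.43 ± 0.681 in nuclei (adjusted p = 0.116).

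**Figure D5:**
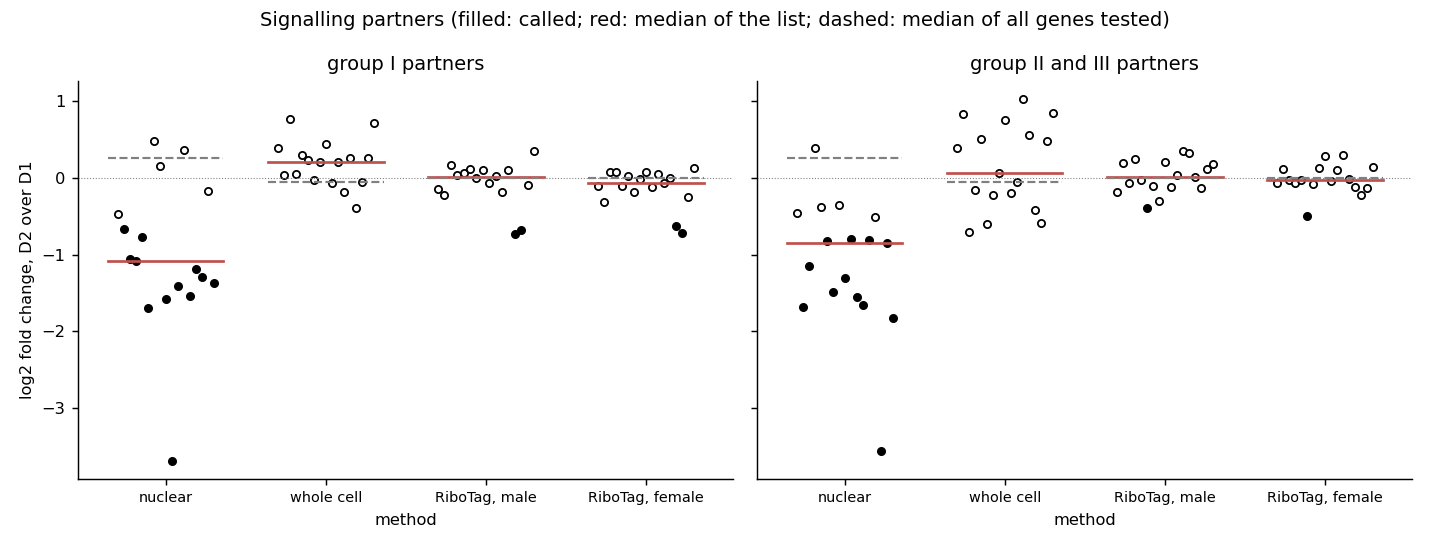
Log2 changes between D2 and D1 of the genes in each partner list, by comparison, with the list median in red and the median of all genes tested as a dashed line. In nuclei both list medians lie below the median of all genes, and in RiboTag they lie near it.

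The genes whose level ran most like a member's over all 47 libraries were found by Pearson r of log2 CPM among about 10589 genes. The libraries differ in method, cell type, sex and depth, and how far r describes each of these was not tested. Grm7 ran with Lrrc4c (r = 0.988) and Kctd16 (0.987), and Grm8 with Slc9a9 (0.989) and Zmat4 (0.985). Grm5 ran with Cttnbp2 (0.966), Grm3 with Lrrtm3 (0.961) and Kansl1 (0.955), and Grm4 with Rbfox3 (0.894) and Mgat5b (0.880). Grm2, with the fewest counts, had the lowest leading values, with Lbh (0.852) and Traf5 (0.816).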

How the data were processed

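RNA was measured by RNA-seq in 47 libraries of D1- and D2-MSNs. The authors aligned paired-end reads of stranded libraries to GRCm38 with HISAT2 2.0.5 and deposited the raw count of fragments per gene, made by featureCounts on the full gene body with reads of both strands, counting overlapping genes each and leaving out multiply aligned fragments. Of the 49 columns, those of whole cell D2 number 3 (a pair of lanes) and of whole cell D1 number 1 (named as a repeat) were summed. The paper counts more whole cell samples of each cell type than the libraries used here. Chi-square per degree of freedom between the summed columns was 1.04 for the lanes and 8.14 for the repeat, against 95.8 between whole cell D1 libraries 2 and 3. The repeat column thus differed by more than counting error. Groups came from the sample titles, and 1 of 49 samples, whose labels conflict, was put in no group.

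Genes with over 1 FPM (fragments scaled to the library total) in at least 2 libraries of a fit were tested with edgeR 4.0.16 in R 4.3.3 (glmQLFit and glmQLFTest, TMM, Benjamini-Hochberg adjustment), within each method or, for contrasts between methods, over all male libraries. The FPM filter is less strict than the study's, which adds an FPKM minimum. Wherever the FPKM filter is named here, FPKM was computed over the gene span, a length that the paper's text does not state. DESeq2 1.42.0 was an alternative. SE is the absolute log2 change divided by the square root of F, and intervals are at 95%. The fits were also run on counts simulated from their own dispersions, without added background. High recovery was required only of the RiboTag fits, so that run does not speak to the power of the nuclear and whole cell tests. Annotation matched 52489 of 52636 genes by identifier. Intervals rest on the spread between libraries, and floors (3 counts of the total) cover counting error only.

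All 6 members were named in every comparison. From each partner list at most the 2 called genes with the largest change were named per comparison. Some genes that this rule names are not reported here. The members and lists were chosen with earlier results of these data known. The leaving out of shallow nuclear libraries and of whole cell libraries dominated by 10 genes, and the subtraction of background between methods, were chosen after seeing the data.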

Additional observations from a re-analysis of the deposited data

Results flagged for a closer look

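Of 48 groups of 4 to 10 libraries tested for a value apart from the rest by Dixon's criterion, 2 passed, and chance alone passes about 1 in 20. Grm7 reached 2860 CPM in whole cell D2 library 5, above the other 5 libraries of its group. In that library 10 genes took 20.2% of counts. Grm5 reached 84.7 CPM in RiboTag male D1 library 1, above the other 5 libraries of its group.

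The D2-D1 difference itself differed between nuclei and whole cells for 5 members in the test of that difference by edgeR with Benjamini-Hochberg adjustment. The log2 values, nuclear minus whole cell, were -2.195 for Grm3, -1.25 for Grm4, -2.125 for Grm5, -1.875 for Grm7 and 1.083 for Grm8. Both the estimated background and the share of counts in 10 genes differed between nuclear D1 and D2 libraries. The 5 members were called with the background subtracted as well, and the part of the share was not tested. The FPKM filter and the leaving out of libraries were not run for this difference.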

How the results depend on the processing

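Of 600 alternative values of the members' log2 differences, 549 kept their direction and side of the threshold, 30 lost a call, 4 gained one and 17 changed sign. The nuclear count of 5 members called fell to 0 under the study's FPKM filter, to 3 with background subtracted and to 0 without libraries under 10 M counts, and ranged from 3 to 5 with 1 library left out, being 3 without nuclear D1 1, D1 2, D2 1 or D2 5. It was 4 under DESeq2 and 4 under its size factors. In every other comparison the number of members called moved by at most 1 over the settings run for it. The FPKM filter and the leaving out of libraries were run only for D2 against D1 within a method. Sign changes occurred in nuclei for Grm4 under the FPKM filter (0.37) and Grm2 without libraries under 10 M counts (-0.16). They occurred for nuclear against whole cell D2 in Grm4 under DESeq2 (0.27), its size factors (0.27) and background subtraction (0.25), and in D1 for Grm8 with background subtracted (0.46). For RiboTag against whole cells they occurred for Grm2 under DESeq2 and its size factors (-0.072 and -0.073 in D1, -0.209 in both for D2), and without a filter for Grm3 (0.082) and Grm5 (0.049) in D1. The remaining ones were whole cell Grm2 with background subtracted (0.014), the sex difference of Grm3 without a filter (0.001) and RiboTag female Grm5, which ranged from -0.015 to 0.066 with 1 library left out. The cause was not tested.

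Genes called in nuclei numbered 8082, but 1475 under the FPKM filter (of 9228 tested), 13504 under DESeq2, 0 without libraries under 10 M counts and 4081 to 14605 with 1 library left out, lowest without nuclear D2 5 and highest without nuclear D1 3. In whole cells the number was 35, with 187 under the FPKM filter, 256 under DESeq2, 57 with the repeat column as a library of its own and 23 without whole cell D1 1. In RiboTag it was 481 in males and 279 in females, with 263 and 183 under the FPKM filter and 495 in females without a filter. Without a filter, nuclear against whole cell D2 gave 13571 (6028 with it), the difference between these methods 12241 (6553), female against male 83 (6) and the sex difference 59 (0), and DESeq2 gave 118 for RiboTag against whole cells (36).

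With the replicate number as a block in RiboTag males, 0 members and 460 genes were called, with Grm4 at 0.22 (adjusted p = 0.0889) and Grm5 at 0.16. Same-numbered libraries did not deviate together (r from -0.0536 to 0.186 over 6 pairs, 1 of 6 closest to its own number). For RiboTag females the block was not run, since column and title numbers differ. Depth limits Grm2 most, with 4 to 24 counts in RiboTag libraries.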
